A study of Mus musculus with 31 samples.

Results

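A set of 10 genes that mark fibroblasts by a surface protein or by the matrix they lay down were followed in AB1-mCherry mesothelioma tumours grown at 3 body sites. The 10 genes, Thy1, Pi16, Mfap5, Pdgfra, Pdgfrb, Dpp4, Fap, Pdpn, Dcn and Lum, were chosen by symbol, with earlier results of these data known. Counts among them are therefore not independent evidence. All 10 are among the 54456 entries of the whole tumour table, and 8 are among the 12444 gene entries of the sorted cell table, which does not list Dpp4 and Fap. The question was whether cells sorted as cancer cells from subcutaneous tumours carry RNA of host fibroblasts.

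AB1-mCherry is a murine mesothelioma line made to express a red fluorescent protein and enriched for its brightest cells before use, so it is 1 selected culture. It was grown in untreated female BALB/c mice aged 12 weeks under the skin (subcutaneous), in the peritoneal space or in the pleural space, and tumours were taken at day 10. RNA came either from the whole tumour, in 5 subcutaneous, 5 peritoneal and 6 pleural tumours, or from cells that were mCherry-positive but negative for CD45 at sorting, in 5 samples at each site. CD45 marks leukocytes, so the gate removes leukocytes by this protein as well as by their lack of mCherry. Host fibroblasts and vessel cells are removed only by their lack of mCherry. No group received a drug, and no group held normal tissue or cultured AB1-mCherry cells, so no level of these genes in pure tumour cells or pure fibroblasts is at hand.

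Fibroblasts build the connective tissue matrix and are recognised by combinations of surface proteins, since no single gene marks them all. Pi16 and Dpp4 mark adventitial fibroblasts around vessels, Fap is a protease induced in wounds and tumour stroma, and the receptors Pdgfra and Pdgfrb receive platelet-derived growth factors. Mesothelioma cells can have a spindle-shaped, mesenchymal form and can themselves express matrix and mesenchymal genes, so a fibroblast marker in a mesothelioma is not by itself a host transcript.

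Levels are in TPM, a transcript's share of a library after correction for length, and are given as mean ± SD. Fold changes are differences of mean log2(TPM + 1) from limma, with Benjamini-Hochberg adjustment across every gene tested, and a gene is said to rise or fall where the adjusted p was below 0.05. Adding 1 TPM makes these log2 fold changes smaller than the plain ratio for low genes. A gene was tested if it reached 1 TPM in 5 libraries, so a gene high at 1 site could enter the test through that site alone, and its call is then no independent evidence of a difference. Such genes are counted apart below. The tables of whole tumours and of sorted cells had separate normalizations, so each was tested only within its own table. Pleural and peritoneal groups were each set against the same subcutaneous libraries, so those comparisons are not independent of each other. The number of reads behind a value is unknown from TPM. In bulk RNA, fewer cells of a type and less RNA per cell cannot be told apart.

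Some libraries stood apart in markers of other cells. Ptprc, which encodes CD45, measured 12.9 and 7.48 TPM in sorted subcutaneous replicates 1 and 2 and 0.228 to 1.58 TPM in replicates 3 to 5, beside 0.233 to 0.946 TPM in peritoneal and 0.291 to 2.05 TPM in pleural sorted cells. Among whole tumours, the summed level of 10 skeletal muscle genes was 316 TPM in pleural replicate 3 and 782 TPM in pleural replicate 5, against 11.5 to 14.7 TPM in the other pleural tumours. The same muscle sum was 80.3 to 1441 TPM in subcutaneous and 14.7 to 17.3 TPM in peritoneal tumours. Where a call on a member changed without these libraries, both results are given, and for the lists of other genes the main changes in their counts.

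The sorted cells of the serosal sites were not empty of the 8 listed genes. Dcn, the collagen-binding proteoglycan decorin, measured 154 ± 43.6 TPM in peritoneal and 137 ± 42.3 TPM in pleural sorted cells (SD, n = 5 each), and its relative Lum (lumican) 38.3 ± 11.5 and 47.4 ± 21.8 TPM. Cd34, a sialomucin used as a marker of fibroblast progenitors and endothelium, had a mean of 497 to 503 TPM in sorted cells of the 3 sites. Msln, the mesothelial surface protein mesothelin, averaged 166 TPM in subcutaneous, 241 TPM in peritoneal and 249 TPM in pleural sorted cells. The genes are described below by role.

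In whole tumours, 4 of the 10 genes were lower at both serosal sites than under the skin. These were Thy1, Pdpn, Fap and Mfap5. None of the 10 was called higher, and 9 of 10 fold changes were negative in either comparison. The exception was Pdgfra, whose 0.02 in pleural tumours became -0.06 under other scalings. Over all genes tested, 3.4% were called lower in pleural and 3.64% in peritoneal than in subcutaneous tumours. The background depends on scaling. In pleural tumours 1415 genes were called higher and 512 lower, but 644 and 912 with median-of-ratios scaling and 674 and 718 with quantile normalization. In peritoneal tumours the numbers were 1283 and 548, 638 and 868, and 729 and 782. The median log2 fold change of the 10 genes was -0.66 in pleural and -0.64 in peritoneal tumours, beside 0.07 over all 15054 genes tested in each comparison.

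Thy1, a small lipid-anchored surface glycoprotein of fibroblasts, T cells and neurons, had the largest fall of the 10 on the log2(TPM + 1) scale in both comparisons. Its level was 139, 189, 164, 179 and 179 TPM in the 5 subcutaneous tumours and 82.2, 66.6, 66.9, 69.4 and 92.7 TPM in the 5 peritoneal ones. The 6 pleural tumours held 43.7 to 99.7 TPM with a median of 72.6 TPM. No serosal tumour reached the lowest subcutaneous value. Thy1 was 2.35-fold higher in subcutaneous than in pleural tumours (log2 fold change -1.27, SE 0.18, adjusted p = 0.000779) and 2.25-fold higher than in peritoneal ones (-1.16, SE 0.19, adjusted p = 0.00183). By the plain ratio of means in peritoneal tumours, the low gene Fap differed more, at 2.59-fold. Thy1 is also a T cell gene, and the summed level of 10 T cell genes was 125 to 197 TPM in subcutaneous, 118 to 204 TPM in peritoneal and 89.4 to 176 TPM in pleural tumours, with 0 of 10 called in either comparison.

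Fap, the fibroblast activation protein, was low at every site. It measured 3.13, 5.59, 3.85, 5.64 and 5.47 TPM in subcutaneous tumours and 1.97, 2.54, 1.57, 1.01 and 2.06 TPM in peritoneal tumours, with no overlap. In the 6 pleural tumours it ranged from 1.09 to 3.59 TPM with a median of 2.10 TPM. Pleural replicates 3 and 5, at 3.59 and 3.30 TPM, passed the lowest subcutaneous tumour. Fap fell by 1.02 on the log2 scale in peritoneal (SE 0.23, adjusted p = 0.0123) and by 0.86 in pleural tumours (SE 0.22, adjusted p = 0.0219). The pleural call was lost without subcutaneous replicate 2 (adjusted p = 0.0659) and without a filter on low values (adjusted p = 0.0542). Of the genes with groups that do not overlap, the 10 members gave 2 in each comparison, Thy1 and Fap in peritoneal and Thy1 and Pdpn in pleural tumours, against 3.47% and 1.93% of all genes tested.

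Pdpn encodes podoplanin, a mucin-like surface protein shared by fibroblasts, lymphatic endothelium and mesothelium. Its level was 50.2, 65.2, 61.5, 58.0 and 60.2 TPM in subcutaneous tumours, 44.0 to 54.7 TPM in peritoneal and 39.4 to 49.1 TPM in pleural tumours. It fell by 0.41 on the log2 scale in pleural (SE 0.07, adjusted p = 0.00368) and by 0.26 in peritoneal tumours (SE 0.08, adjusted p = 0.0367). The peritoneal call was lost with any 1 of subcutaneous replicates 2, 3, 4 and 5 or peritoneal replicates 1, 3, 4 and 7 left out (adjusted p 0.0529 to 0.0975). The summed level of 6 lymphatic endothelial genes was 3.00 to 8.75 TPM in subcutaneous, 5.28 to 90.9 TPM in peritoneal and 2.85 to 21.0 TPM in pleural tumours, with 0 of 3 tested genes called.

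Dpp4, a membrane peptidase of adventitial fibroblasts that T cells and epithelia also carry, overlapped fully between sites. It measured 2.03 ± 0.73 TPM in subcutaneous, 1.99 ± 0.87 TPM in peritoneal and 1.97 ± 0.67 TPM in pleural tumours (SD, n = 5, 5 and 6), with adjusted p = 0.943 and 0.940 for pleural and peritoneal against subcutaneous. Pi16, which encodes a peptidase inhibitor of the adventitial fibroblast, measured 17.6 to 46.2 TPM in subcutaneous and 9.01 to 22.4 TPM in peritoneal tumours (log2 fold change -0.96, adjusted p = 0.290). In 5 of the 6 pleural tumours it lay between 7.47 and 27.9 TPM, while pleural replicate 3 held 130.5 TPM. The pleural comparison gave -0.67 (adjusted p = 0.454) with that tumour and -1.22 (adjusted p = 0.0361) without it.

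The growth factor receptors did not pass the test in whole tumours. Pdgfra measured 18.8 ± 3.77 TPM in subcutaneous, 21.3 ± 2.88 TPM in peritoneal and 19.3 ± 4.99 TPM in pleural tumours. Pdgfrb, the receptor most used for pericytes, measured 20.0 ± 1.19, 16.03 ± 4.44 and 17.5 ± 3.62 TPM. The adjusted p for Pdgfrb was 0.166 in peritoneal and 0.389 in pleural tumours. The summed level of 13 pericyte and smooth muscle genes was 75.5 to 135 TPM in subcutaneous, 52.6 to 87.4 TPM in peritoneal and 41.4 to 233 TPM in pleural tumours, and 0 of 12 tested were called (3 lower at each site without pleural replicates 3 and 5). The ligand genes of these receptors showed 1 call among 4, a fall of Pdgfc from 22.9 ± 1.10 to 16.8 ± 1.24 TPM in peritoneal tumours (log2 fold change -0.42, SE 0.10, adjusted p = 0.0167), and 0 of 4 in pleural tumours. Without pleural replicates 3 and 5, Pdgfc was called lower in pleural and Pdgfc and Pdgfd in peritoneal tumours.

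Among the matrix members, Mfap5, a glycoprotein of the fibrillin microfibrils that scaffold elastic fibres, was lower at both serosal sites. Subcutaneous tumours held 109, 192, 160, 202 and 191 TPM and peritoneal tumours 98.6, 137, 88.7, 74.7 and 93.9 TPM. Pleural tumours ranged from 62.0 to 122 TPM with a median of 80.8 TPM. Only subcutaneous replicate 1 lay within the range of the serosal tumours. Mfap5 fell by 0.97 on the log2 scale in pleural (SE 0.22, adjusted p = 0.0114) and by 0.78 in peritoneal tumours (SE 0.22, adjusted p = 0.0354). As for Pdpn, the peritoneal call was lost with any 1 of those 8 tumours left out (adjusted p 0.0566 to 0.0870). For both genes it was also lost with the replicate number as a block (0.0754 for Mfap5 and 0.0514 for Pdpn). The labels give mice of different sites different numbers, so that block is no known pairing.

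Dcn and Lum bind fibrillar collagen and are made by most fibroblasts. Dcn measured 213 ± 47.1 TPM in subcutaneous, 135.0 ± 28.0 TPM in peritoneal and 139 ± 65.8 TPM in pleural tumours, with adjusted p = 0.101 and 0.0713. Dcn was called lower in pleural tumours with median-of-ratios scaling (adjusted p = 0.0472) and in peritoneal tumours where only the 2 compared sites were fitted (0.0367). Lum measured 73.1 ± 15.5, 47.8 ± 16.5 and 49.8 ± 29.0 TPM, with adjusted p = 0.157 and 0.127. Pleural replicate 3 was the highest pleural tumour for both, at 263 TPM of Dcn and 108 TPM of Lum. Without it Dcn (log2 fold change -0.90, adjusted p = 0.00800) and Lum (-0.90, adjusted p = 0.0123) were called lower in pleural tumours, which made 7 of 10 members with Pi16, and Dcn was also called lower in peritoneal tumours (adjusted p = 0.0340), since the sites share 1 estimate of spread. Without both pleural replicates 3 and 5 the counts were 7 of 10 in pleural and 6 of 10 in peritoneal tumours. Dcn and Pi16 (adjusted p = 0.0475) were the ones gained in peritoneal tumours. Of all 14853 genes tested in that fit, 699 were called lower in pleural and 710 in peritoneal tumours. Without replicate 3 alone these numbers were 670 and 683 of 14951 genes. In pleural replicate 3 the sums over activated fibroblast genes (539 TPM against 162 to 262 TPM in the other pleural tumours) and pericyte genes (233 TPM against 41.4 to 109 TPM) were high as well.

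Between the serosal sites, 0 of the 10 members were called in whole tumours, beside 0.0531% of all genes (8 of 15054). None of the 10 was below an unadjusted p of 0.05 in limma, the lowest being 0.0596 for Pdpn.

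**Figure D1:**
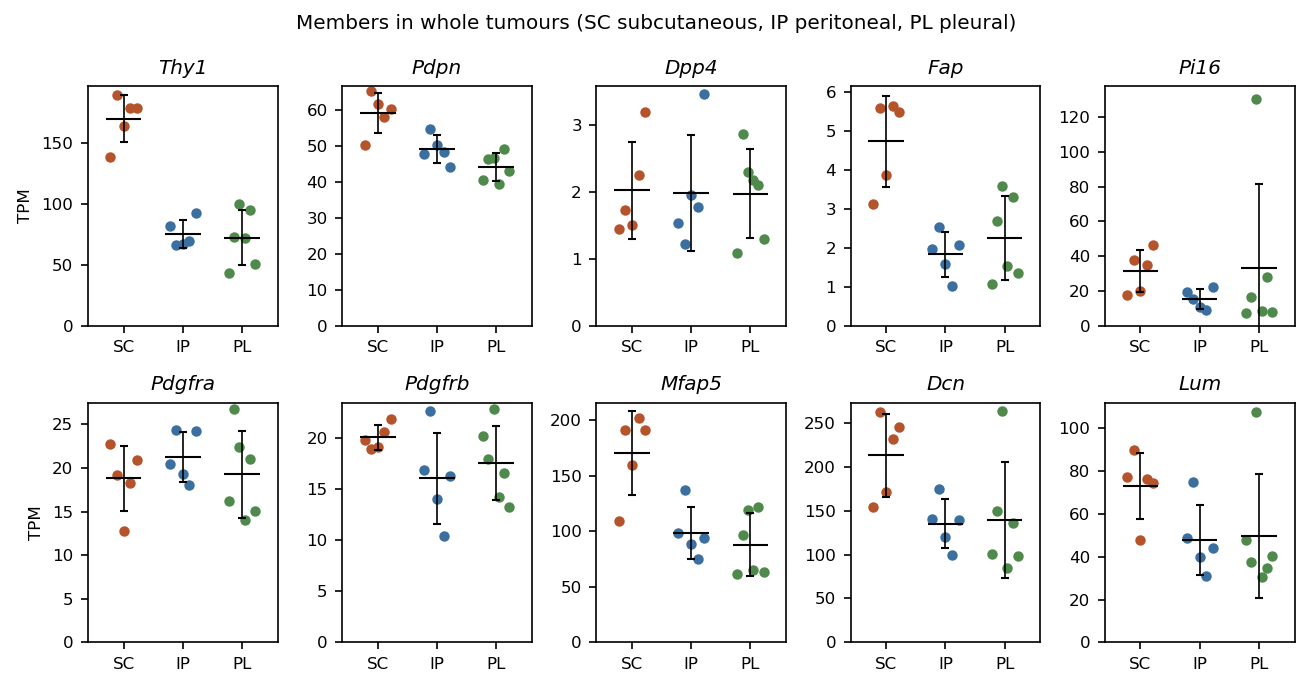
TPM of the 10 genes in each whole tumour (points) at the subcutaneous (SC, n = 5), peritoneal (IP, n = 5) and pleural (PL, n = 6) site, with the mean (long bar) and SD (whiskers); each panel has its own axis from 0. Every subcutaneous tumour lies above every serosal one for Thy1, where the peritoneal and pleural values overlap, and 1 pleural tumour stands far above the others for Pi16 at 130.5 TPM.

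In sorted cells Thy1, Mfap5 and Pdgfrb were lower at both serosal sites than under the skin. Pi16 was lower there as well, but it entered the test through the subcutaneous libraries. Of the other 7 listed members, 3 were lower in pleural than in subcutaneous cells and 4, with Pdpn, were lower in peritoneal cells. Without subcutaneous replicates 1 and 2 the counts were 2 and 3 of 7, with Pdgfrb lost in pleural and Pdpn in peritoneal cells. In that fit 60 of all 12252 genes tested were called lower in pleural and 471 in peritoneal cells. No member was higher, and the fold changes of all 8 were negative in either comparison. With all libraries, the shares of all genes called lower were 1.25% in pleural and 6.33% in peritoneal against subcutaneous cells. With quantile normalization the 587 higher and 782 lower of the peritoneal comparison became 1525 and 961, and the 49 and 154 of the pleural one 106 and 161. The median log2 fold change of the 7 was -0.50 in pleural and -0.76 in peritoneal cells, beside -0.02 and -0.03 over all 12357 genes tested. Groups did not overlap for 2 of the 7 in the pleural comparison, against 2.04% of all genes, and for 4 of 7 in the peritoneal one, against 5.04%.

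Thy1 was low in serosal cells and high in every subcutaneous library. The subcutaneous sorted cells held 74.9, 33.7, 36.9, 55.6 and 27.8 TPM. The peritoneal cells held 6.90, 1.85, 8.59, 1.31 and 1.93 TPM, and the pleural cells 3.09, 2.31, 1.95, 3.46 and 2.91 TPM. The lowest subcutaneous library was thus above the highest serosal one. Mean Thy1 was 16.7-fold higher in subcutaneous than in pleural cells (log2 fold change -3.57, SE 0.37, adjusted p = 2.83e-05) and 11.1-fold higher than in peritoneal cells (-3.35, SE 0.37, adjusted p = 3.38e-05). Without subcutaneous replicates 1 and 2, the pair highest in CD45 transcript, the log2 fold changes were -3.42 (adjusted p = 0.000852) and -3.20 (adjusted p = 0.000718).

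Mfap5 was present at every site and higher under the skin. Its level was 121, 66.9, 90.3, 91.6 and 71.7 TPM in subcutaneous cells. It was 34.0, 40.2, 36.1, 33.3 and 34.6 TPM in peritoneal and 25.3, 25.3, 33.9, 27.2 and 31.8 TPM in pleural cells. Serosal libraries formed a narrow band from 25.3 to 40.2 TPM, and no subcutaneous library fell within it. Mfap5 fell by 1.57 on the log2 scale in pleural (SE 0.14, adjusted p = 6.54e-06) and by 1.26 in peritoneal cells (SE 0.14, adjusted p = 3.23e-05), and by 1.53 and 1.22 without subcutaneous replicates 1 and 2 (adjusted p = 1.68e-05 and 0.000116).

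Pi16 was low in all sorted cells. Subcutaneous cells held 6.53, 3.43, 3.55, 3.19 and 3.79 TPM, peritoneal cells 0.703, 0.548, 2.14, 0.767 and 0.477 TPM, and pleural cells 0.487, 0.949, 0.381, 1.28 and 1.55 TPM. Every subcutaneous library was above every serosal library. The log2 fold change was -1.41 in pleural and -1.43 in peritoneal cells (SE 0.23 each). Pi16 reached 1 TPM in 5 of 5 subcutaneous libraries and in 3 of 10 serosal ones, so the filter admitted it through the group where it is high. With no filter beyond that of the deposited table, the adjusted p was 0.00343 for pleural and 0.00162 for peritoneal cells. Without subcutaneous replicates 1 and 2 the log2 fold changes were -1.26 and -1.28.

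Pdgfrb measured 20.5, 13.2, 13.6, 7.94 and 10.96 TPM in subcutaneous cells and 5.62, 2.66, 4.82, 6.34 and 3.28 TPM in peritoneal cells, with no overlap. Pleural cells held 9.73, 4.44, 3.68, 3.33 and 4.67 TPM, and pleural replicate 1 passed the lowest subcutaneous library. It fell by 1.35 on the log2 scale in peritoneal (SE 0.27, adjusted p = 0.00580) and by 1.23 in pleural cells (SE 0.27, adjusted p = 0.0287). The pleural call was lost without any 1 of subcutaneous replicates 1, 2, 3 and 5 or pleural replicates 2, 3, 4 and 5 (adjusted p 0.0507 to 0.0936), and without both subcutaneous replicates 1 and 2 (log2 fold change -0.99, adjusted p = 0.278). Pdgfra, its partner receptor, measured 12.2 ± 3.58, 7.12 ± 3.13 and 9.90 ± 2.69 TPM in subcutaneous, peritoneal and pleural cells and did not pass the test (adjusted p = 0.0771 and 0.820). The peritoneal difference was called without peritoneal replicate 1 (adjusted p = 0.0351) and under median-of-ratios scaling (0.0340) and quantile normalization (0.0304).

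Pdpn had another order of sites in sorted cells. It measured 30.6 to 42.6 TPM in subcutaneous, 20.8 to 26.5 TPM in peritoneal and 27.0 to 41.1 TPM in pleural cells. It fell by 0.55 on the log2 scale in peritoneal against subcutaneous cells (SE 0.12, adjusted p = 0.0109, and 0.0613 without subcutaneous replicates 1 and 2). Pleural cells gave -0.12 against subcutaneous (adjusted p = 0.853). Pleural cells were above peritoneal cells by 0.44 on the log2 scale (SE 0.12, adjusted p = 0.0371), the only 1 of 8 members called between the serosal sites, where 9.96% of all genes were called. That call was lost without any 1 of peritoneal replicates 2, 4 and 5 or pleural replicates 1, 3 and 4.

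Dcn and Lum overlapped between all sites in sorted cells. Dcn measured 189 ± 39.1, 154 ± 43.6 and 137 ± 42.3 TPM in subcutaneous, peritoneal and pleural cells (adjusted p = 0.387 for peritoneal and 0.436 for pleural against subcutaneous). Lum measured 58.2 ± 20.3, 38.3 ± 11.5 and 47.4 ± 21.8 TPM (adjusted p = 0.222 and 0.802).

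**Figure D2:**
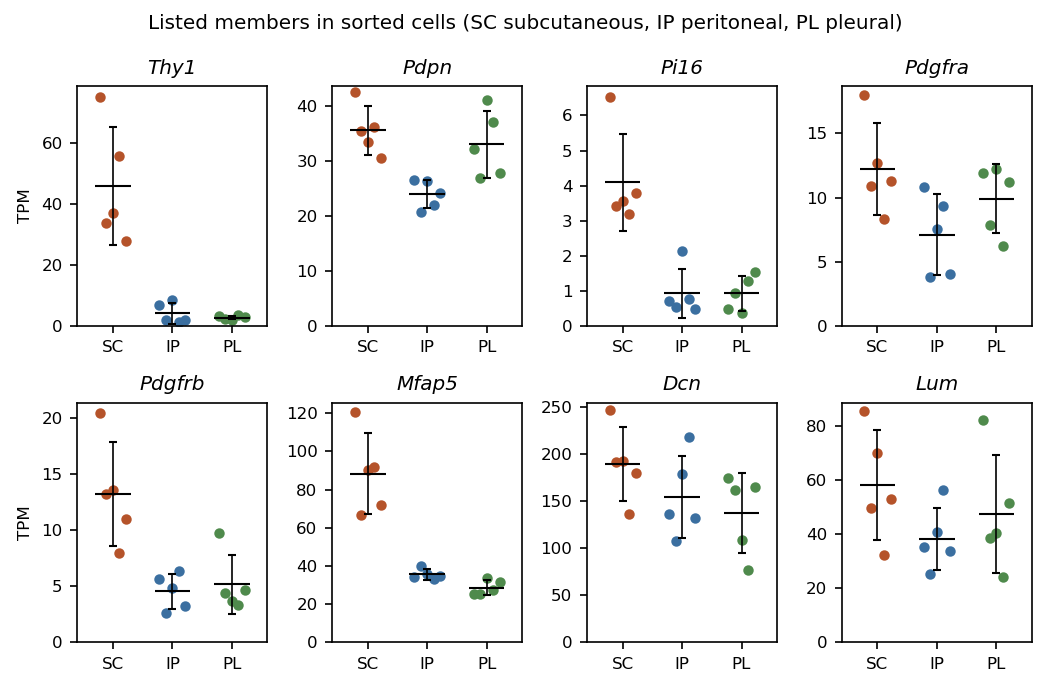
TPM of the 8 listed genes in each sorted library (points; n = 5 per site), with the mean (long bar) and SD (whiskers); each panel has its own axis from 0. Subcutaneous libraries lie above all serosal libraries for Thy1, Mfap5 and Pi16, and the sites overlap for Dcn, Lum and Pdgfra.

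**Figure D3:**
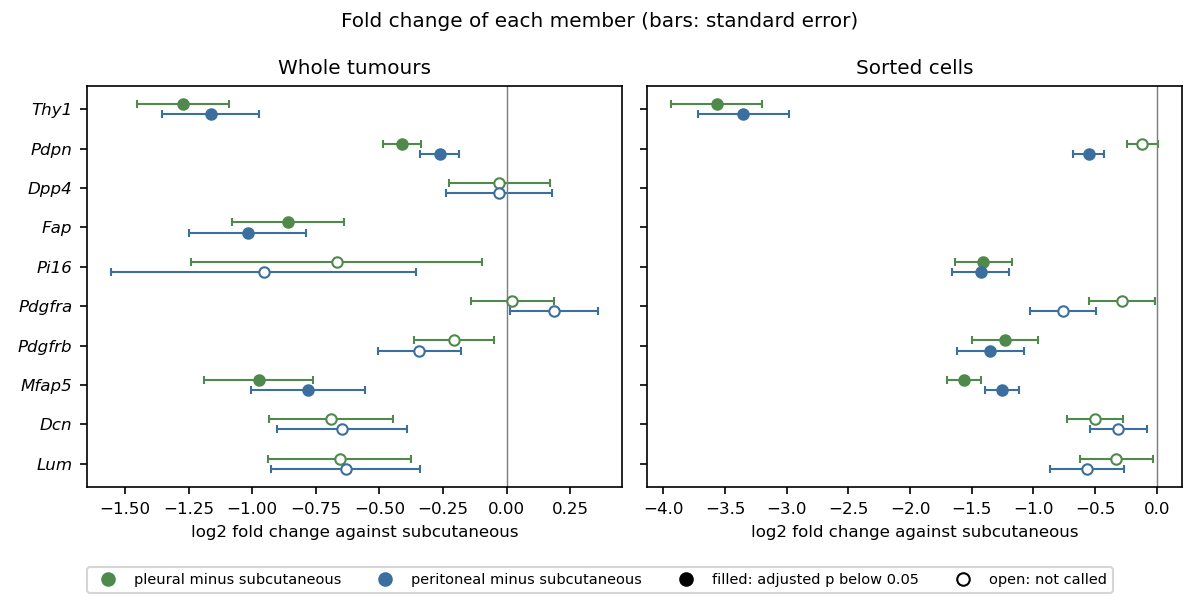
log2 fold change of each gene against the subcutaneous site (x axis, log2 of TPM + 1) in whole tumours (left) and sorted cells (right), with bars for 1 standard error and filled points for adjusted p below 0.05; the panels have different x axes. Thy1 reaches -3.57 and -3.35 in sorted cells against -1.27 and -1.16 in whole tumours, and Dpp4 and Fap have no value in sorted cells.

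The sorted mean was then set beside the whole tumour mean of the same site, as a description across tables that were normalized separately and made with different RNA kits. Thy1 in sorted cells amounted to 26.9% of its whole tumour level under the skin, 5.44% in the peritoneal and 3.79% in the pleural space. Pi16 gave 13.03%, 5.98% and 2.80%. Mfap5 gave 51.7%, 36.1% and 32.6%, and Pdgfrb 66.0%, 28.3% and 29.5%. At the other end, Dcn gave 88.9%, 114% and 98.7% and Lum 79.6%, 80.0% and 95.1%, so these proteoglycan transcripts were about as abundant in sorted cells as in whole tumours at every site. Pdgfra (65.1%, 33.4% and 51.4%) and Pdpn (60.5%, 49.0% and 75.1%) lay between. Using subcutaneous replicates 3 to 5 only, Thy1 stood at 23.6%.

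The same percentage was taken for genes of other cell types. C1qa, a complement gene of macrophages, gave 10.6% under the skin and 1.79% with subcutaneous replicates 3 to 5, beside 1.72% in peritoneal and 1.62% in pleural cells. Ptprc gave 7.84% and 1.24% in the same way, beside 1.15% and 1.83%. Cd53, a tetraspanin of leukocytes, gave 24.3% and 14.1%, beside 7.16% and 3.48%, and so stayed above the serosal sites. Of the 10 macrophage genes the subcutaneous percentage exceeded both serosal ones for 10, and for 7 with replicates 3 to 5, and of the 10 leukocyte genes for 9 and 3. The endothelial adhesion gene Pecam1 gave 20.2% and 20.7%, beside 7.20% and 12.8%. All 7 listed endothelial genes were above both serosal percentages, with replicates 3 to 5 as well. Of the 11 listed activated fibroblast genes 7 were, and 8 with replicates 3 to 5. Among these, Postn (periostin) gave 49.8% and 43.3%, beside 10.2% and 6.92%, and Cilp, a cartilage and fibroblast matrix protein, 47.8% and 40.0%, beside 3.75% and 10.7%. Others of that list went the other way, such as Col12a1 at 72.8% under the skin beside 106% and 97.8%. Lrrc15 gave 56.0% beside 70.5% and 73.1%, but its serosal percentages compare levels near 0. Its mean was 0.0218 TPM in sorted cells and 0.0309 TPM in whole tumours at the peritoneal site. At the pleural site these means were 0.0499 and 0.0683 TPM, against 3.67 and 6.55 TPM under the skin. A subcutaneous percentage above both serosal ones was not limited to these lists. It was found for 3 of 4 mesothelial, 12 of 15 microfibril and elastic fibre, and 4 of 6 proteoglycan genes. The genes found across fibroblasts gave 12 of 22, and skeletal muscle genes 0 of 2. With replicates 3 to 5 these counts were 3, 7, 4, 12 and 0. Leaving out the 2 libraries highest in CD45 transcript brought C1qa and Ptprc near the serosal percentages. For Ptprc, the gene of CD45, that follows from how the libraries were chosen. Thy1, Cd53, Postn, Cilp and Pecam1 stayed above their serosal percentages, and the reason was not tested.

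**Figure D4:**
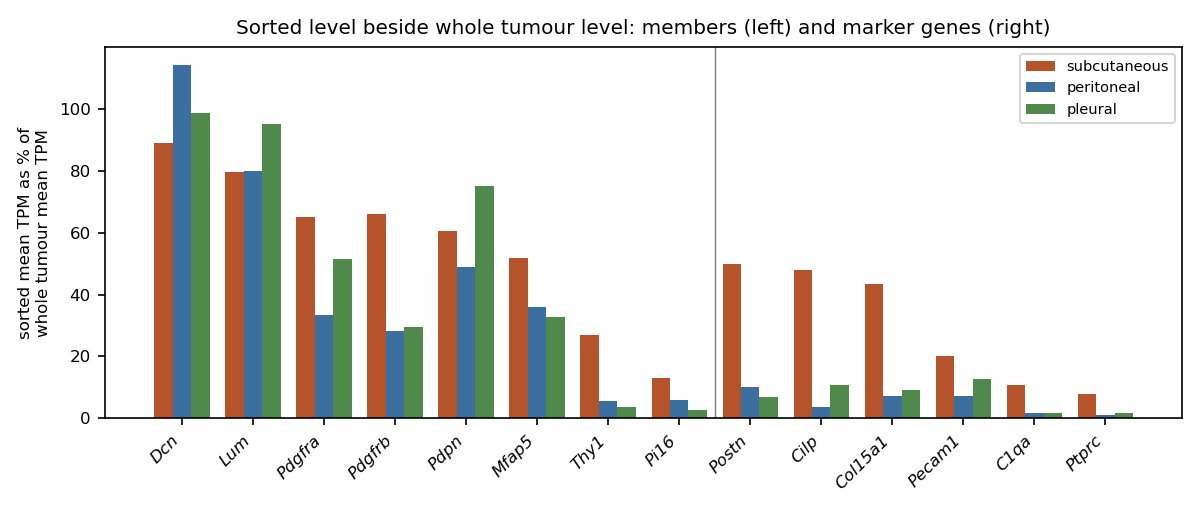
Mean TPM in sorted cells as a percent of mean TPM in whole tumours of the same site (bars; y axis from 0, no error is drawn) for the 8 members left of the line and 6 marker genes right of it. Dcn and Lum stand at 79.6 to 114% at every site, while Thy1 is at 26.9% under the skin and below 6% at the serosal sites.

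Thy1 and leukocyte markers are given library by library. The summed level of 10 macrophage genes in the 5 subcutaneous sorted libraries was 1292, 906, 51.1, 217 and 33.2 TPM, while Thy1 in the same libraries was 74.9, 33.7, 36.9, 55.6 and 27.8 TPM. Replicates 3 and 5 had macrophage sums within or below the 35.3 to 139 TPM of pleural cells and the 42.8 to 129 TPM of peritoneal cells. Thy1 in these replicates was above every serosal library. The part of leukocytes in the Thy1 values was not tested. Of the macrophage list 0 of 9 tested genes were called in either comparison. Of 10 leukocyte genes 1 was called lower in each, Cd53, at 18.9 ± 12.2 TPM in subcutaneous, 3.59 ± 0.76 TPM in peritoneal and 2.01 ± 0.85 TPM in pleural cells, and it stayed called at both sites without subcutaneous replicates 1 and 2. The 1 listed T cell gene, Lck, was not called, and averaged 4.99, 6.12 and 6.4 TPM in subcutaneous, peritoneal and pleural cells.

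Among endothelial and pericyte genes, some were also lower in serosal sorted cells. The sum of the 7 listed endothelial genes was 46.3, 30.9, 33.7, 45.7 and 47.3 TPM in the subcutaneous sorted libraries, 5.45 to 18.9 TPM in peritoneal and 7.86 to 31.0 TPM in pleural cells. All 7 were tested, and 6 fell in peritoneal and 2 in pleural cells (6 and 0 without subcutaneous replicates 1 and 2). Plvap, a component of endothelial fenestrae, measured 10.4 ± 2.44, 2.66 ± 1.72 and 3.73 ± 1.62 TPM. Of 13 pericyte and smooth muscle genes 3 were listed, with sums of 13.9 to 20.2 TPM in subcutaneous, 4.41 to 9.89 TPM in peritoneal and 6.52 to 9.61 TPM in pleural cells, and Mcam and Ndufa4l2 were called lower at both serosal sites. Ndufa4l2 entered the test through the subcutaneous libraries, and the pleural call of Mcam was lost without subcutaneous replicates 1 and 2. Fabp4, the only listed one of 8 adipocyte genes and one that capillary endothelium also makes, fell from 15.4 ± 2.73 to 3.71 ± 2.90 TPM in peritoneal cells. The part of these cells in the values of Thy1, Mfap5, Pi16 and Pdgfrb was not tested.

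**Figure D5:**
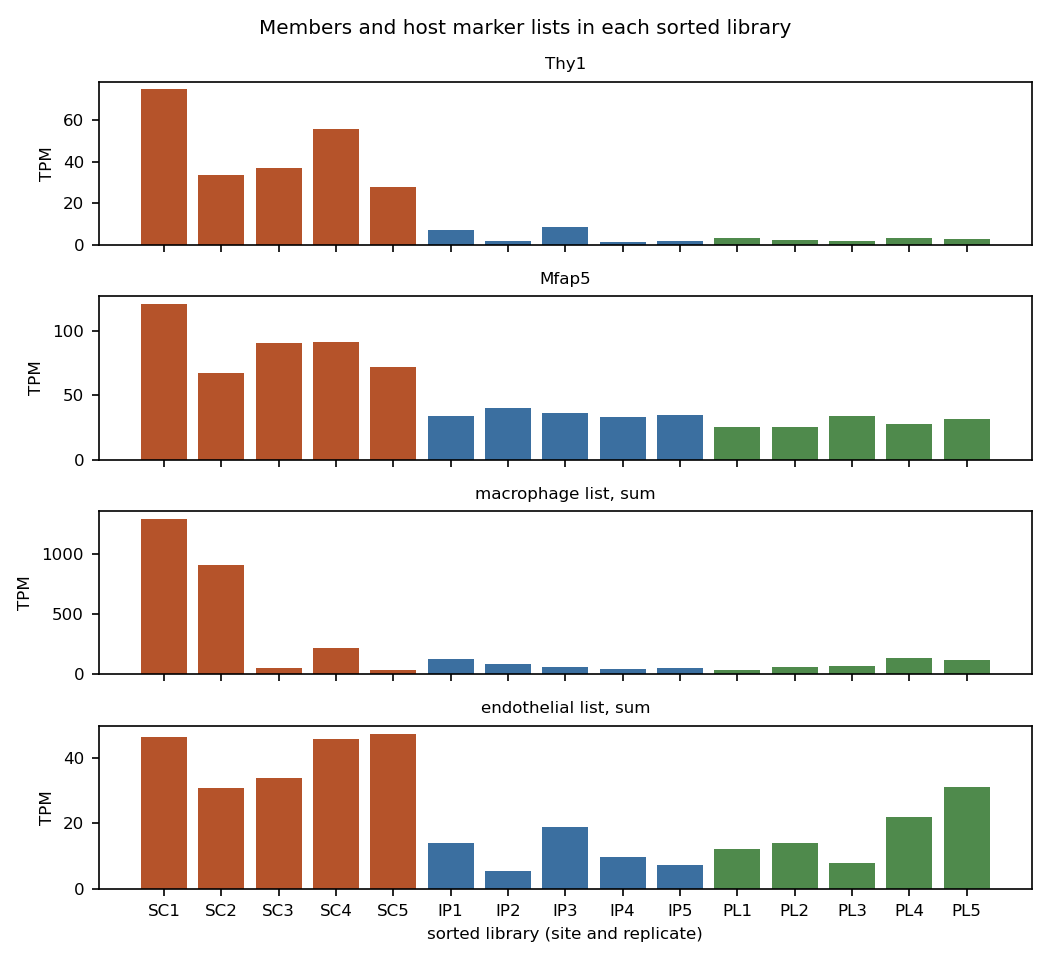
Thy1, Mfap5, the summed level of 10 macrophage genes and the summed level of 7 listed endothelial genes in each sorted library (bars, TPM, each axis from 0; SC, IP and PL with the replicate number). The macrophage sum is high in SC1 and SC2 at 1292 and 906 TPM, while Thy1 and Mfap5 are higher in all 5 subcutaneous libraries than in any serosal one. The endothelial sum of SC2, at 30.9 TPM, lies just below that of PL5 at 31.0 TPM.

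Other markers gave few calls in sorted cells. Of 14 mesothelial genes 4 were listed, and Krt8, a keratin of simple epithelia and mesothelium, fell in pleural cells to 10.9 ± 8.82 from 39.9 ± 14.98 TPM, while Krt18 and Msln were called higher in peritoneal cells. The calls of Krt8 and Msln were lost without subcutaneous replicates 1 and 2, and Krt18 entered the test through the peritoneal libraries. Of 10 skeletal muscle genes 2 were listed and of 6 keratinocyte genes 1, and none of these was called. None of the 6 lymphatic endothelial and 4 Schwann cell genes was listed. In whole tumours, skeletal muscle genes were lower in both comparisons (10 of 10 in peritoneal and 8 of 10 in pleural), mesothelial genes higher (10 of 11 and 7 of 11 tested, with 0 lower), and 5 and 2 of 10 macrophage genes and 4 and 1 of 10 leukocyte genes lower. Without pleural replicates 3 and 5 the pleural numbers were 10 of 10 skeletal muscle genes lower, 6 of 10 mesothelial genes higher and 3 of 10 leukocyte genes lower. With all libraries, 6 of the 10 skeletal muscle genes entered the test through the subcutaneous tumours and 5 of the 11 mesothelial genes through the peritoneal ones. Of 11 endothelial genes 1, Pecam1, fell in peritoneal and 3, Pecam1, Cldn5 and Plvap, in pleural tumours, and 5 and 9 fell without pleural replicates 3 and 5. No adipocyte and keratinocyte gene tested was called there.

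Several genes of the activated fibroblast, a state of wounds and tumour stroma, were lower at the serosal sites. In sorted cells 11 of 14 were listed, and 5 were called lower in pleural and 7 in peritoneal cells, with 0 higher. Of these, 4 in each comparison, Cthrc1, Lrrc15, Postn and Cilp, entered the test through the subcutaneous libraries. Of the 6 that did not depend on that site, 1 fell in pleural (Col12a1) and 3 in peritoneal cells (Col12a1, Acta2 and Adam12), with a median log2 fold change of -0.66 and -0.97. Without subcutaneous replicates 1 and 2, when 9 passed the filter on low values, 3 were called lower at each site, Postn, Cilp and Col12a1. Postn and Cilp again entered that test through the subcutaneous libraries. Postn measured 92.2 ± 37.1 TPM in subcutaneous, 1.10 ± 1.15 TPM in peritoneal and 1.43 ± 1.03 TPM in pleural cells. Its lowest subcutaneous library held 63.6 TPM and its highest serosal library 3.08 TPM. Cilp measured 18.6 ± 9.67, 0.367 ± 0.166 and 0.990 ± 0.325 TPM. Lrrc15, a surface protein of myofibroblasts in tumours, measured 3.67 ± 1.49 TPM in subcutaneous cells and 0.0499 ± 0.0327 TPM in pleural cells.

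Whole tumours gave 6 of 12 activated fibroblast genes lower at each serosal site, of which Lrrc15 entered the test through the subcutaneous tumours. Postn measured 185 ± 30.3 TPM in subcutaneous, 10.8 ± 1.37 TPM in peritoneal and 20.7 ± 27.4 TPM in pleural tumours. The pleural mean rests on replicate 3 at 75.1 TPM, and the other 5 averaged 9.78 ± 6.86 TPM. In the other direction, Tagln, a smooth muscle and myofibroblast actin-binding protein, rose in peritoneal tumours from 6.54 ± 2.35 to 22.5 ± 9.72 TPM, and Acta2 was called higher there too without pleural replicates 3 and 5.

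Some genes found across fibroblasts of many tissues were lower in serosal sorted cells. Of the 22 listed of 28, 6 were called lower at each serosal site, 0 rose in pleural and 1, Pcolce, in peritoneal cells. Col14a1, Pdgfrl and Abi3bp, 3 of the 6 at each site, entered the test through the subcutaneous libraries. Without subcutaneous replicates 1 and 2, 1 of 19 fell in pleural (Col15a1) and 3 in peritoneal cells (Col15a1, Dpt and Has1). Col15a1, a basement membrane zone collagen, measured 41.2 ± 16.9, 4.78 ± 4.30 and 5.12 ± 2.09 TPM in subcutaneous, peritoneal and pleural cells, and Col14a1, which coats collagen fibrils, 4.15 ± 3.13, 0.259 ± 0.128 and 0.457 ± 0.341 TPM. The summed level of the list was alike between sites, at 2038 to 2319 TPM in subcutaneous, 1898 to 2408 TPM in peritoneal and 1912 to 2147 TPM in pleural cells. The list holds abundant genes whose sorted level was 90.6% or more of the whole tumour level at every site, such as Cd34, Pcolce and Igfbp6. In whole tumours 3 of 26 tested fell in peritoneal and 2 in pleural tumours, among them Sfrp2, a secreted Wnt modulator, from 19.5 ± 7.67 to 1.70 ± 0.66 and 4.86 ± 3.91 TPM, and 1 rose in each, Islr. Without pleural replicates 3 and 5, 5 fell in peritoneal and 8 in pleural tumours, and with median-of-ratios scaling 4 and 5.

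For the partners of Mfap5 in microfibrils and elastic fibres, the calls depended on the libraries and the scaling. In sorted cells 15 of 16 were tested. There 2 were called lower in pleural and 4 in peritoneal cells (3 and 6 under either other scaling), beside 1.25% and 6.33% of all genes. In peritoneal cells 1, Efemp1, rose. Fbln2 (fibulin 2) measured 71.6 ± 20.9, 20.0 ± 2.66 and 33.0 ± 16.5 TPM in subcutaneous, peritoneal and pleural cells, and Fbln1, which entered the test through the subcutaneous libraries, 3.43 ± 1.78, 0.324 ± 0.413 and 0.524 ± 0.258 TPM. Eln, the elastin gene, fell in peritoneal cells from 14.4 ± 7.40 to 4.51 ± 1.04 TPM (log2 fold change -1.35, SE 0.35, adjusted p = 0.0223), and the fourth gene that fell there was Fbn1. In whole tumours 0 of 15 fell at either site, and Efemp1 rose in peritoneal tumours from 278 ± 12.7 to 364 ± 51.4 TPM, a call lost with median-of-ratios scaling, where 1 gene was called lower at each site. Without pleural replicates 3 and 5, 1 of 15 fell in pleural tumours (Fbln2) and 3 in peritoneal tumours (Fbln2, Ltbp1 and Ltbp2). In sorted cells without subcutaneous replicates 1 and 2 the falls numbered 1 of 14 in peritoneal (Fbln2) and 0 of 14 in pleural cells.

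Of 12 proteoglycan genes related to Dcn and Lum, 6 were tested in sorted cells. Bgn (biglycan) fell at both serosal sites, from 907 ± 211 to 479 ± 62.8 TPM in peritoneal and 529 ± 94.7 TPM in pleural cells (adjusted p = 0.00192 and 0.0140), Aspn (asporin) fell in peritoneal cells from 39.8 ± 13.4 to 13.8 ± 4.90 TPM, and Podnl1 rose there. In whole tumours 2 of 8 tested, Bgn and Podn, fell and 1, Kera, rose in peritoneal tumours, and 0 of 8 were called in pleural tumours. Without pleural replicates 3 and 5 the same 3 genes, Bgn, Podn and Kera, were called in pleural tumours, in the same directions. Without subcutaneous replicates 1 and 2, Bgn was not called in pleural cells, and Bgn and Aspn were in peritoneal cells, where the call of Podnl1 was lost. The ligand genes gave 1 call among 3 in sorted cells, Pdgfb, which binds both receptors and is made largely by endothelium in tissues, at 3.06 ± 1.96 TPM in subcutaneous against 0.456 ± 0.308 TPM in peritoneal cells. Pdgfb entered the test through the subcutaneous libraries, and the mean of subcutaneous replicates 3 to 5 was 1.74 TPM. Without replicates 1 and 2 it missed the filter, and 0 of 2 ligand genes were called.

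The genes whose log2 level followed a member most closely across libraries were listed as a description, without a test, since libraries of a site share whatever sets the site apart. In sorted cells (15 libraries) Thy1 followed Ccl11, an eosinophil-attracting chemokine of stromal cells, at r = 0.99, and then Rian, Sulf1, Loxl2 and Dio3. With site means subtracted the first remained at r = 0.90. Pi16 followed Lox, Cxcl14, Cpxm1 and Gng11 (r = 0.96 to 0.97), and Mfap5 followed Col23a1, Lrrc15, Cpxm1, Crabp1 and Cdh11 (r = 0.95 to 0.96). The 3 members followed each other with r = 0.87 to 0.93, and with site means subtracted r was 0.61 for Thy1 with Pi16, 0.32 for Thy1 with Mfap5 and 0.30 for Pi16 with Mfap5.

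In sorted cells Dcn and Lum followed each other at r = 0.84, and 0.88 with site means subtracted, while their r with Thy1 was 0.45 and 0.38, and 0.05 and 0.04 with site means subtracted. The closest genes to Dcn were Gpr153, Igfbp4, Spon2, Pros1 and Slc38a9, and those to Lum were Plscr4, Pros1, Mfap4, Eln and Fbxo8. Pdgfrb lay with the matrix genes Col1a1 (r = 0.95), Bgn and Col10a1, and then Lipa and Nrep, and with Lum (r = 0.80, and 0.90 with site means subtracted). Pdgfra followed Il1rl2 (r = 0.99), Megf9, Stat5b, Bmpr1a and Acvr1b, and Pdpn followed Rap1b (r = 0.91), Hcar2, Plau, Cep85l and Pdzrn3.

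In whole tumours (16 libraries) Fap and Mfap5 moved together most closely of all pairs of members given here, at r = 0.95, and 0.96 with site means subtracted. Fap followed Dchs1, Rnase4, Spon1, Pecam1 and Igsf10 (r = 0.93 to 0.96), and Mfap5 followed Pecam1, Adamts4, Col18a1, Dchs1 and Sulf1, so the endothelial gene Pecam1 was in both sets. Thy1 followed Vstm4, Cpxm1, Pcsk5, Sulf1 and Fibin (r = 0.94 to 0.95). Pi16 followed Sgce, Sod3, C1qtnf6, Gpx3 and Bicc1 (r = 0.95 to 0.97), in a set of libraries where pleural replicate 3 stands apart. Dcn followed Rian, Lama4, Col1a1, C1qtnf6 and Igsf10, Lum followed Lama2, H1f2, Zfp469, Sox7 and Mest, and Pdpn followed Tfpi2, Adamts4, Slc48a1, Col18a1 and Gpc1. The closest genes to Pdgfrb were Selenow, Lrp1, Mfap2, Rnf144a and Fam229b, and those to Pdgfra were Nkiras2, Svep1, Fem1c, Cyp1b1 and Mettl7a1. Dpp4 followed Tgm1, Samsn1, Mcur1 and Diaph1 (r = 0.85 to 0.86). Its r with the other members was at most 0.45, and with site means subtracted at most 0.67, with Thy1, followed by 0.50 with Fap and 0.47 with Pi16.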

How the data were processed

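The authors quantified 50 bp single-end HiSeq reads with kallisto on GRCm39, per the submitters' processing notes, and deposited TPM per gene symbol in a table of 16 whole tumours and a table of 15 sorted libraries. Not given in the sources used here are its version, the annotation and the strand setting. Whether reads of Dpp4, Pdgfra and Pi16 were told apart from those of antisense neighbours is therefore unknown. Each whole tumour sums to 1000000 TPM. Every sorted table entry exceeds 1 TPM in at least 1 library and sums are 996124 to 998055, so low genes had been removed. Calendar dates stand for symbols in 17 sorted entries, which were left out.

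With limma 3.58.1 in R 4.3.3, log2(TPM + 1) was fitted with an intensity trend and the 3 sites together, for genes that reached 1 TPM in 5 or more libraries. All 10 members passed in whole tumours and all 8 listed ones in sorted cells. The scripts were tested on simulated data. The members and the 16 marker lists were chosen with earlier results of these data known. All members are reported in every comparison, with up to 3 called genes of largest fold change per list and, per member, the 5 genes with the highest Pearson r, leaving out predicted and clone names. A few genes that this rule names are not reported here. A few other genes were named after their values were seen. Results were recomputed with no filter, a filter of 5 TPM, a pseudocount of 0.1, median-of-ratios and quantile scaling, the 2 compared sites only, the replicate block and leaving out each library. Fits without pleural tumours 3 and 5, or without sorted subcutaneous libraries 1 and 2, were chosen after seeing the data. Within a site and sample kind, replicates carry separate mouse numbers in the labels and are named by them, so that peritoneal tumours 2, 3 and 4 are the columns that the deposited table numbers 3, 4 and 5. For 14 mouse numbers there is both a whole tumour and a sorted library, and the labels do not say whether the same mouse gave both. No reference of the authors' build was used, so no coordinates or sequences are given.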

Additional observations from a re-analysis of the deposited data

Results flagged for a closer look

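Each member was looked at in each group of 5 or 6 libraries, which made 54 cases. In 3 of them, from 2 members, 1 library lay far from the others of its group on the log2(TPM + 1) scale, where chance gives about 1 in 20. Lum was highest in pleural whole tumour replicate 3, at 108 TPM against 30.6 to 47.9 TPM in the other 5. Pi16 was highest in sorted subcutaneous replicate 1, at 6.53 TPM against 3.19 to 3.79 TPM in the other 4. Pi16 was also highest in sorted peritoneal replicate 3, at 2.14 TPM against 0.477 to 0.767 TPM.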

How the results depend on the processing

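Thy1 and Mfap5 were called lower in sorted cells at both serosal sites under every alternative run, and Pi16 under all but the 5 TPM filter, which it did not pass. Over all members, called changes stayed called in 379 member-setting combinations and missed the threshold in 39, and uncalled changes became called in 15. The number of members called between pleural and subcutaneous whole tumours was 3 to 7 with any library left out and 7 without pleural replicates 3 and 5. For peritoneal tumours it was 2 to 5 with any library left out, 2 without a filter, 2 with the replicate block and 6 without pleural replicates 3 and 5. Mfap5 and Pdpn lost that call without any 1 of subcutaneous replicates 2, 3, 4 and 5 or peritoneal replicates 1, 3, 4 and 7. Between sorted pleural and peritoneal cells it was 0 to 1 with any library left out and 0 with 2 sites fitted. The cause was not tested.

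Changes of sign were limited to uncalled differences. In pleural against subcutaneous tumours Pdgfra became -0.061 with median-of-ratios scaling, -0.058 with quantile normalization, -0.079 without pleural replicates 3 and 5, and -0.10 to 0.10 with any library left out, and Dpp4 ranged from -0.11 to 0.097. In peritoneal against subcutaneous tumours Dpp4 became 0.0053 with the replicate block and -0.18 to 0.096 with any library left out. In pleural against peritoneal tumours Dpp4 became -0.0076 with median-of-ratios scaling, -0.056 with the block and -0.068 without both replicates, as did Fap (-0.099) and Pi16 (-0.56), and Lum 0.0064 with the block. With any library left out these ranged from -0.095 to 0.16 for Dpp4, -0.27 to 0.52 for Pi16, -0.27 to 0.15 for Lum, -0.25 to 0.075 for Dcn and -0.21 to 0.022 for Thy1. In sorted pleural against peritoneal cells Pi16 became -0.010 with quantile normalization, and the ranges were -0.089 to 0.21 for Pi16, -0.31 to 8.7e-05 for Dcn, -0.10 to 0.23 for Pdgfrb and -0.44 to 0.077 for Thy1.

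Same-numbered libraries of 2 sites did not deviate together consistently, with r from -0.38 to 0.35. Of 29 pairs, 8 correlated best with their own number, and no chance level was computed for that count. With the block, whole tumour calls over all genes were 849 in place of 1927 (pleural) and 656 in place of 1831 (peritoneal). Also, 2389 and 2292 genes were called without pleural replicates 3 and 5. In sorted cells 70 in place of 203 genes were called for pleural, and 917 in place of 1369 for peritoneal against subcutaneous, without subcutaneous replicates 1 and 2. The depth behind TPM values is unknown, so levels near 1 TPM, as of Pi16 in serosal cells, have no known counting error.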
